A study of Mus musculus with 6 samples.

Results

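The sarcomeric myosin heavy chains are the motor subunits of the muscle thick filament, and 7 of their genes were followed here: Myh1, Myh2, Myh3, Myh4, Myh6, Myh7 and Myh8. They were measured by all probe sets annotated with exactly 1 gene symbol among these, which gave 11 of the 45037 probe sets on the array that were not controls, and 7 of 18193 named genes. A further 2 probe sets carried the symbols of a myosin heavy chain and another gene together and were not used. Signals came from 6 Affymetrix Mouse430_2 arrays of calf muscle (gastrocnemius and soleus) from non-fasted female mice aged 5 weeks on a background labelled SJ6/C57BL6. The arrays were 3 of mice transgenic for integrin alpha7, a laminin receptor chain of the fibre membrane, and 3 of wild type mice that serve as their controls and whose titles also carry the word Intronic. Each array held RNA pooled from 6 animals, so 18 animals stood behind each genotype. The labels name neither the promoter of the transgene nor the number of founder lines. Pooling averages animals within an array, and the tissue holds both muscles together.

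A myosin heavy chain carries the ATPase head that pulls on actin and a long coiled-coil tail that packs into the thick filament, and the isoform sets the speed of the fibre. In mouse limb muscle Myh7 marks slow type I fibres, and Myh2, Myh1 and Myh4 mark fast fibres of types IIA, IIX and IIB in order of rising speed. Myh3, the embryonic chain, and Myh8, the perinatal chain, dominate before and around birth and return in regenerating fibres. Myh6 is the alpha chain of the heart.

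In the RefSeq gene table, 5 of these genes lie on chromosome 11 in the order Myh3, Myh2, Myh1, Myh4 and Myh8, while Myh6 and Myh7 lie side by side on chromosome 14. The promoters of Myh2, Myh1, Myh4 and Myh8 are shown because these neighbours on the chromosome share stretches of sequence. The sequences are those of RefSeq, build GRCm38.p6, plus strand, 5′ to 3′. Capitals mark runs of at least 14 bases that 3 or more of the 4 promoters hold.
Myh2, chr11:67170877-67170936: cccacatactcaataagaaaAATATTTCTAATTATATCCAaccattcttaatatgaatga
Myh1, chr11:67199866-67199976: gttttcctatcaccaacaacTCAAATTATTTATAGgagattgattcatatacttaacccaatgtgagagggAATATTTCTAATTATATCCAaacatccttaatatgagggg
Myh4, chr11:67237605-67237688: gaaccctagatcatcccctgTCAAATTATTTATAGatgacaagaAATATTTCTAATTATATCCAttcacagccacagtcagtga
Myh8, chr11:67277000-67277103: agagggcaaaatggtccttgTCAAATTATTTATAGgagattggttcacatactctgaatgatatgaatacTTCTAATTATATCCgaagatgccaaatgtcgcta

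The run TTCTAATTATATCC of 14 bases stood in all 4 promoters, beginning 125 bases before the annotated start in Myh2, 160 in Myh1, 158 in Myh4 and 54 in Myh8. Of 32817 promoter windows of 300 bases, some of which overlap, 4 held it on either strand (0.0122%), and they were those of these genes. The adult fast genes Myh2, Myh1 and Myh4 shared a longer run of 20 bases, which the promoter of Myh8 does not hold in full. The second run, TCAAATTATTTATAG, stood in Myh1, Myh4 and Myh8 and in no other window, and it contains a match to the AT-rich consensus of MEF2, a family of muscle transcription factors. Such a match was present in 3 of the 7 genes and in 3.19% of all windows. The letters TATAAA, searched on both strands, were found in 6 of the 7 genes, all but Myh7, against 13.6% of all windows. In Myh2 and Myh6 the only match lay after the annotated start, at offsets of 10 and 1. In Myh8 the only match lay at -96, inside the second run, which also holds the MEF2 match. Myh1 and Myh4 had a match inside that run too, and each had another nearer the start. The only match of Myh3 lay at -29. The E-box CANNTG was found in 5 of the 7 against 72.3%, and CATTCC, the MCAT letters, in 4 against 14.7%. A CArG box was found in Myh4 alone, against 1.63%. These matches describe letters in a window, and binding was not measured.

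No probe set of a sarcomeric myosin heavy chain passed an adjusted p of 0.05 between the genotypes in limma. Signals were compared as log2(signal + 16), the offset damping dim values, and 9 of the 11 probe sets lay above a filter at the 40th percentile of mean signal, about 21.7. Over the whole array 0.122% of 27022 tested probe sets passed, 0.0999% as higher and 0.0222% as lower. Of the 9, 4 had a p under 0.05 before adjustment, 2 higher and 2 lower in transgenic muscle, beside 7.85% of all probe sets, 3.51% higher and 4.34% lower. For 5 of the 9 the groups were fully apart, with 2 higher and 3 lower in transgenic muscle, beside 13.4% of all probe sets, 5.85% higher and 7.5% lower. The 3 lower ones, of Myh4 and Myh1, had mean signals over 10000, where 42.9% of tested probe sets were fully lower. The developmental chains were on the higher side and the adult IIX and IIB chains on the lower side. In bulk tissue, fewer fibres of a type and less of its RNA per fibre cannot be told apart.

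**Figure D1:**
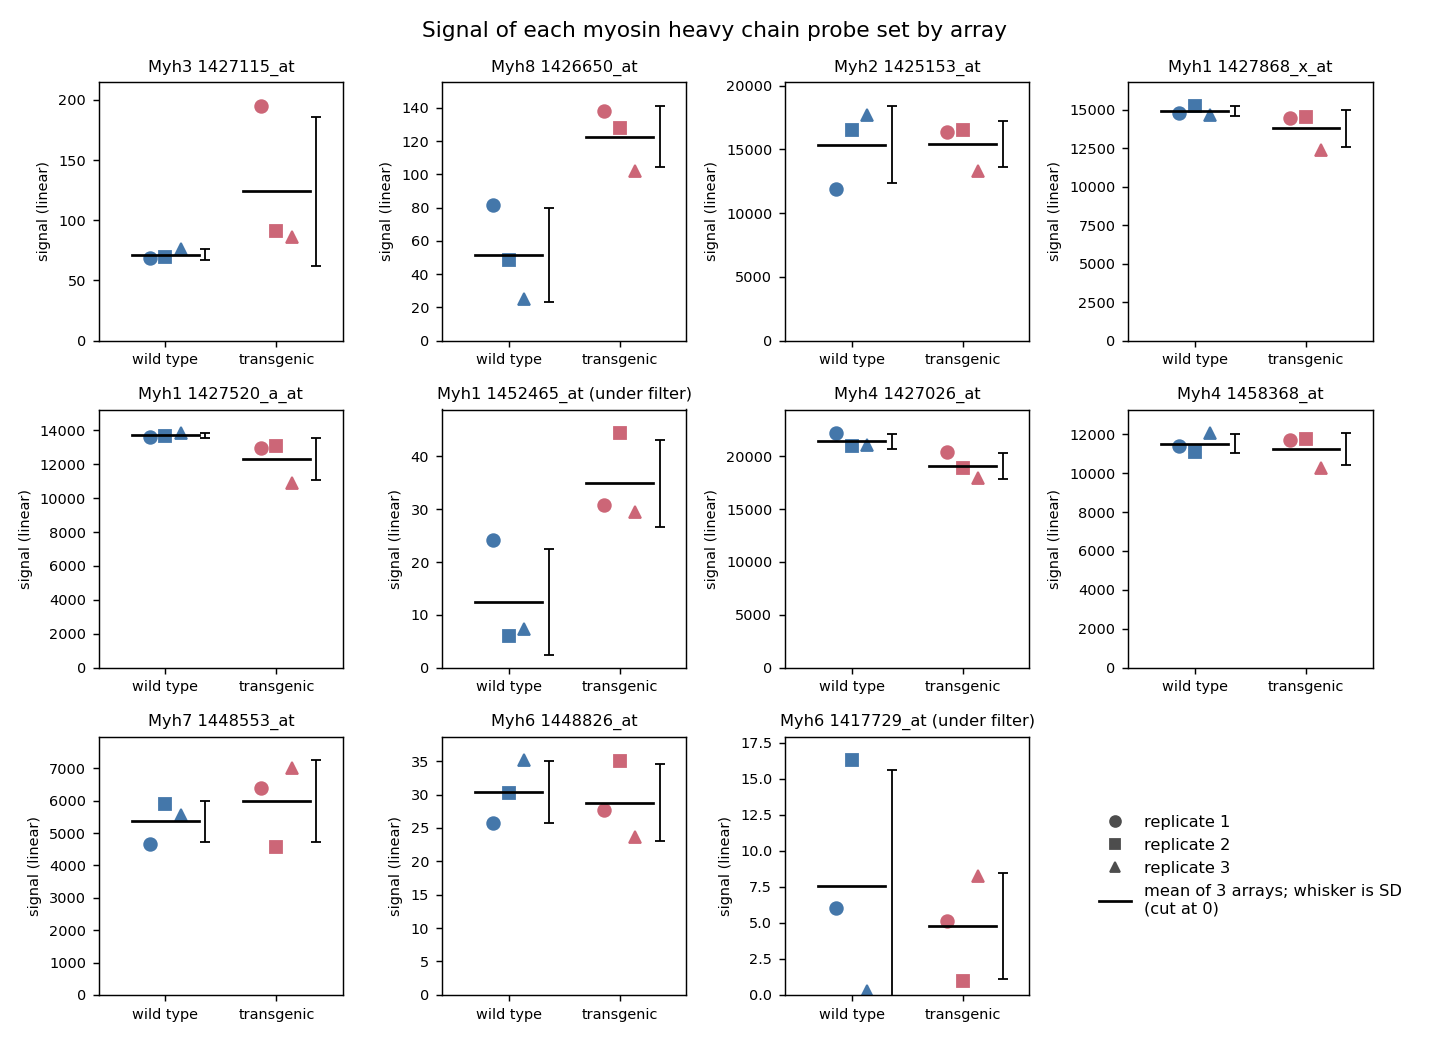
Linear signal (vertical axes, from 0) of each of the 11 probe sets on the 3 wild type arrays (blue) and 3 transgenic arrays (red), with the group mean as a bar and SD as a whisker. Every transgenic array lies above every wild type array for Myh3 and Myh8, and for Myh4 1427026_at every transgenic array lies below. Of the Myh1 probe sets, 1427520_a_at and 1427868_x_at also lie fully below, and 1452465_at, under the filter, lies fully above.

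The perinatal chain Myh8 had the widest difference among the 9 tested probe sets. Its signal was 81.4, 48.4 and 24.9 on wild type replicates 1, 2 and 3 and 138, 128 and 102 on transgenic replicates 1, 2 and 3. The genotypes did not overlap, and the lowest transgenic array stood above the highest wild type one, although the wild type arrays differed more among themselves than the transgenic ones did. The means were 51.6 ± 28.4 in wild type and 123 ± 18.5 in transgenic muscle (SD, n = 3). On the log2(signal + 16) scale the difference was 1.12 with a 95% interval of 0.53 to 1.70, a 2.17-fold difference. In limma the p was 0.00144 before adjustment and the adjusted p 0.242. Leaving out each array in turn gave log2 differences from 0.80, without wild type replicate 3, to 1.43, without wild type replicate 1. None of these left-out fits brought the adjusted p under 0.05, with a range of 0.0942 to 0.534. Among all alternatives run, only a model that took the fluidics module, a unit of the washing station, as a random block did so, at an adjusted p of 0.0248. No module held both genotypes, and only modules 1 and 2 held more than 1 array. The within-module correlation in that model was -0.44, limma's estimate for arrays of the same module after the genotype fit. Since the shared modules lie within a genotype, a negative value narrows the standard error of the difference. The adjusted p of 0.0248 rests on that value. By their recorded hybridisation times the arrays were grouped here into 2 rounds that each held both genotypes. The log2 difference of Myh8 was 0.91 among the 4 arrays of round 1 and 1.53 between the 2 arrays of round 2.

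The embryonic chain Myh3 also had higher signal in transgenic muscle, but 1 array carried most of the difference. Its signal was 68.2, 69.7 and 76.4 on wild type replicates 1 to 3 and 195, 91.0 and 85.8 on transgenic replicates 1 to 3. The genotypes did not overlap, the wild type arrays lay close together, and transgenic replicate 1 stood far above the other two. The log2 difference was 0.60 with a 95% interval of 0.06 to 1.13, and its adjusted p in limma was 0.591. Without transgenic replicate 1 it was 0.26, with an adjusted p of 0.803. Transgenic replicate 1 had the highest signal of all 6 arrays for Myh8 as well.

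Other genes of developing and regenerating muscle were read beside these chains. Of 18 listed genes 16 were tested, 0 passed the adjusted threshold in either direction, and 9 had positive and 7 negative log2 differences, with a median of 0.10 against -0.01 over all 27022 tested probe sets. Myl4, the embryonic and atrial light chain, had signals of 261, 246 and 242 in wild type and 382, 301 and 304 in transgenic muscle. Transgenic replicate 1 was again the highest, and the log2 difference of Myl4 was 0.37 with an adjusted p of 0.416 in limma. Actc1, the cardiac alpha actin that fetal skeletal muscle also makes, stood on the lower side with a log2 difference of -0.19 and an adjusted p of 0.233. Its mean signal was 16737 in wild type and 14662 in transgenic muscle. Of all tested probe sets with a mean signal of 10000 and more, 86.6% had negative differences. The adhesion receptor Cdh2 was also on the lower side, at -0.45 and an adjusted p of 0.623 in limma. Chrng, the fetal subunit of the acetylcholine receptor, was under the filter, with wild type signals of 6.30, 6.89 and 4.66. On the transgenic arrays it was 28.7, 6.30 and 36.6, so transgenic replicate 2 overlapped with wild type.

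Satellite cell and myoblast markers were all measured, 7 of 7 above the filter and none passing, with 4 positive and 3 negative log2 differences and a median of 0.06. Their summed signal was 690 to 785 in wild type and 756 to 862 in transgenic muscle, with overlap. Pax7, the satellite cell factor, averaged 44.5 ± 6.98 and 42.6 ± 4.97 (SD, n = 3). For 2 of the 7 the groups did not overlap, beside the 13.4% of all probe sets: Myog, the myogenic factor myogenin, at a log2 difference of 0.22, and Cdh15, the muscle cadherin, at -0.22. Mymk, a myoblast fusion protein, and the myogenic factor Myod1 were at 0.28 and 0.20 with overlapping groups. The part of these cells in the Myh8 and Myh3 values was not tested.

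**Figure D2:**
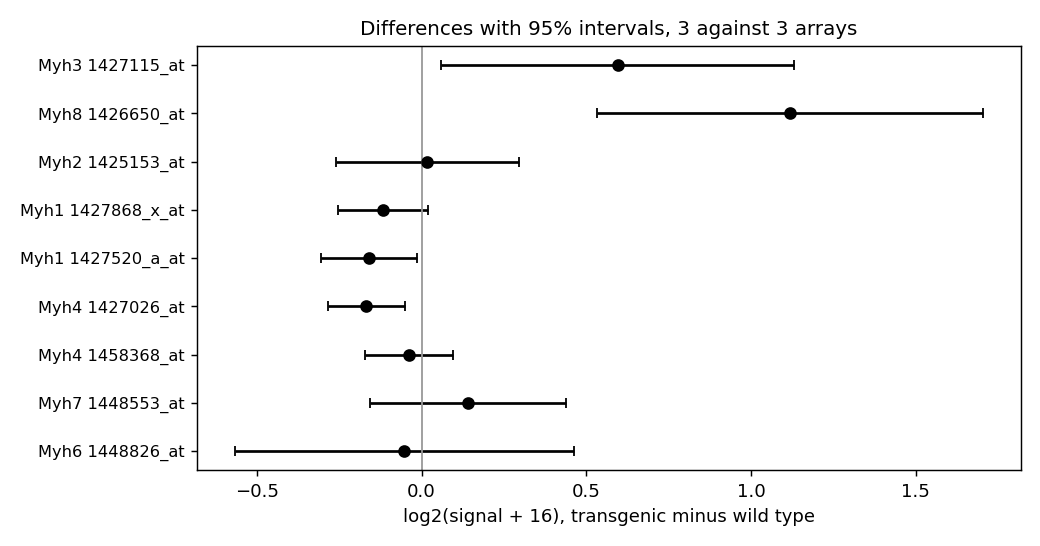
Difference between genotypes on the log2(signal + 16) scale (horizontal axis, transgenic minus wild type) for the 9 tested probe sets, as points with 95% intervals from limma. The intervals of Myh8, at 0.53 to 1.70, and Myh3 lie above 0, those of Myh4 1427026_at and Myh1 1427520_a_at lie below it, and the others include it.

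Among the adult fast chains, the IIB chain Myh4 had lower signal in transgenic muscle on 1 of its 2 probe sets. On probe set 1427026_at the wild type signals were 22198, 20989 and 21038 and the transgenic ones 20426, 18894 and 17928. The genotypes did not overlap, with transgenic replicate 3 the lowest. The log2 difference was -0.17 with a 95% interval of -0.29 to -0.05, and in limma the p was 0.00954 before adjustment and the adjusted p 0.437.

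The second Myh4 probe set, 1458368_at, overlapped between the genotypes. Its signals were 11406, 11113 and 12055 in wild type and 11684, 11748 and 10278 in transgenic muscle, where replicate 3 alone lay under the wild type range. Its log2 difference was -0.04 with a 95% interval of -0.17 to 0.09. The sign turned with quantile normalization, at 0.012, with equal array medians, at 0.034, and without transgenic replicate 3, at 0.025. The probe sets of Myh4 thus differed in whether the groups overlapped.

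The IIX chain Myh1 was measured by 3 probe sets, of which 2 were bright and 1 dim. The bright 1427520_a_at gave 13584, 13666 and 13841 in wild type and 12945, 13087 and 10887 in transgenic muscle. The wild type arrays lay within a narrow range, all transgenic arrays lay under it, and transgenic replicate 3 was the lowest. Its log2 difference was -0.16 (95% interval -0.31 to -0.01, adjusted p = 0.598 in limma), and it was -0.07 without transgenic replicate 3. The second bright one, 1427868_x_at, whose suffix by the maker's naming marks probes that can match other transcripts, gave 14786, 15246 and 14666 in wild type. In transgenic muscle it gave 14438, 14520 and 12360, again with no overlap and with replicate 3 the lowest. Its log2 difference was -0.12 (95% interval -0.25 to 0.02, adjusted p = 0.698 in limma), and it was -0.04 without transgenic replicate 3.

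The dim Myh1 probe set, 1452465_at, ran the other way. It gave 24.1, 6.09 and 7.31 in wild type and 30.8, 44.4 and 29.4 in transgenic muscle, again without overlap. It fell under the filter, so it was not among the tested probe sets, and its log2 difference of 0.88 depended on the offset, at 0.37 with an offset of 64. In the 5 alternatives in which it was fitted, its adjusted p in limma was 0.493 to 0.779. A comparison of its signal with that of the bright probe sets was not made, since probes differ in how well they bind.

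The IIA chain Myh2 showed no separation of the genotypes. Its signals were 11925, 16522 and 17690 in wild type and 16343, 16550 and 13346 in transgenic muscle, with wild type replicate 1 the lowest of all. The means were 15379 ± 3048 and 15413 ± 1793 (SD, n = 3), and the log2 difference was 0.02 (95% interval -0.26 to 0.29, adjusted p = 0.986 in limma). Myh2 varied more between wild type arrays, with a coefficient of variation of 19.8%, than Myh4 1427026_at at 3.20% or Myh1 1427520_a_at at 0.961%. Without wild type replicate 1 the Myh2 difference was -0.16, with an adjusted p of 0.840.

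The lower side of Myh1 and Myh4 was shared by most transcripts of like brightness. Of 119 tested probe sets with a mean signal of 10000 and more, 86.6% had negative differences, with a median of -0.08, and 42.9% had every transgenic array under every wild type one. Over all tested probe sets those shares were 52.6% and 7.5%, with a median of -0.01. The highest signal on an array was 23547 to 23952 in wild type and 21386 to 22469 in transgenic muscle. Quantile normalization, which gives all arrays the same distribution, left Myh4 1427026_at at -0.04 and Myh1 1427520_a_at at -0.07. Equal array medians left them at -0.09 for both. Myh8 moved little under these scalings, at 1.14 and 1.18.

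**Figure D3:**
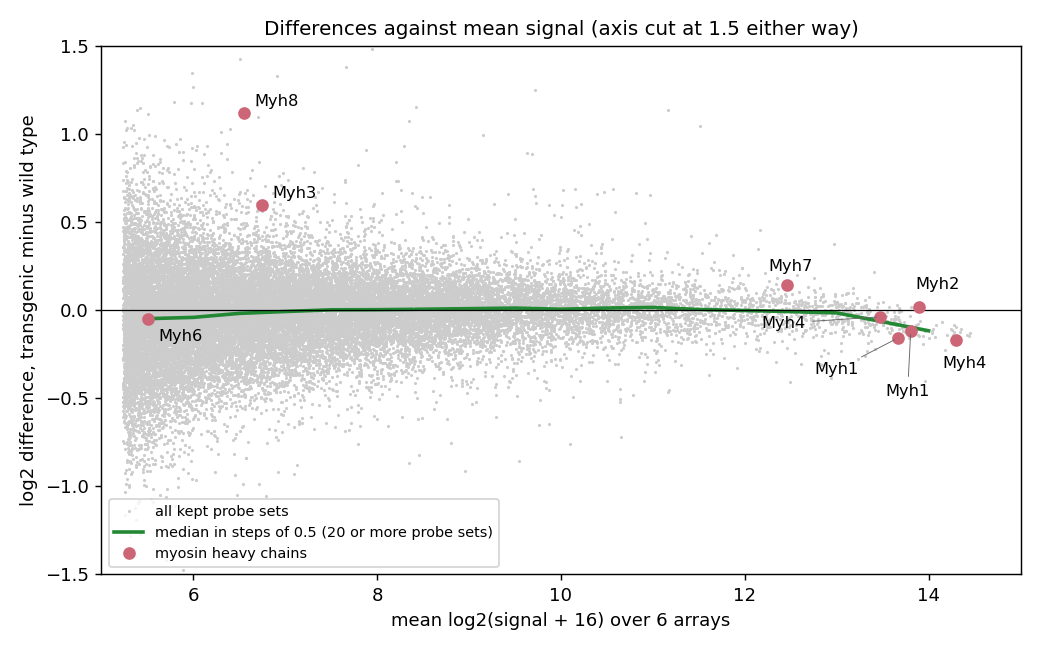
Log2 difference between genotypes (vertical axis) against mean log2(signal + 16) over 6 arrays (horizontal axis) for all tested probe sets (grey), their median by brightness (green) and the 9 myosin heavy chain probe sets (red). At the bright end the median lies below 0 and the Myh1 and Myh4 points lie near it, while Myh8 lies at 1.12 among dim probe sets.

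Companions of the fast chains showed the same side. Of 12 fast fibre genes all were tested, 0 passed, and 12 of 12 had negative log2 differences, with a median of -0.14. The lowest p belonged to Tpm1, a thin filament tropomyosin, at a log2 difference of -0.23 and an adjusted p of 0.183 in limma. The light chain Myl1 and the fast troponin C gene Tnnc2 followed, both at -0.16. All 3 had wild type mean signals of 17394 or more. All 12 genes had mean signals over 10000 in both genotypes, in the bright range described above, where 86.6% of tested probe sets had negative differences. The summed signal of 7 general skeletal muscle markers was also lower on every transgenic array than on any wild type array. These 7 include Tnnt3, which is also among the 12 fast fibre genes, so the sum is not separate from them. Taken singly, 2 of the 7, Tnnt3 and Mb, had groups without overlap, beside 13.4% of all probe sets. The part of the marker sum in the fast fibre values was not tested.

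The slow chain Myh7 overlapped between the genotypes. Its signals were 4655, 5893 and 5549 in wild type and 6381, 4560 and 7010 in transgenic muscle, so that the transgenic group held both the lowest and the highest array. The means were 5366 ± 639 and 5984 ± 1272 (SD, n = 3). The log2 difference was 0.14 with a 95% interval of -0.16 to 0.44, which includes differences in either direction, and an adjusted p of 0.845 in limma. Without transgenic replicate 2 it was 0.32, and without transgenic replicate 3 it was 0.01.

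The arrays lowest for Myh7 were also the lowest for the mean of other slow fibre genes, though not for each gene singly. Of 13 slow fibre companions all were tested, 0 passed, 4 had positive and 9 negative differences, and the median was -0.03. Their mean log2 signal was lowest on transgenic replicate 2 and next lowest on wild type replicate 1, at 0.23 and 0.06 below the mean of the 6 arrays, and Myh7 was lowest on the same arrays, at 0.30 and 0.27 below its own mean. On transgenic replicate 3, where Myh7 was highest at 0.32 above its mean, the companions were at 0.01. The summed signal of the companions was 68357 to 72198 in wild type and 61716 to 73640 in transgenic muscle. Tnnt1 and Tnni1, the slow troponin T and I genes, had log2 differences of 0.019 and 0.0029. The labels do not give the share of soleus, the slower muscle, in each pool, and its part in these values was not tested.

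**Figure D4:**
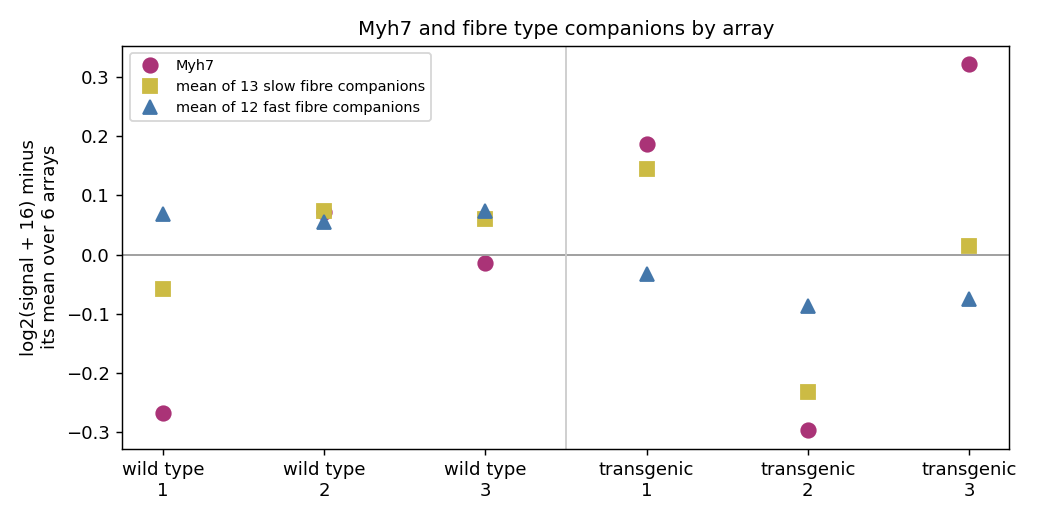
Myh7 (circles), the mean of 13 slow fibre companions (squares) and the mean of 12 fast fibre companions (triangles) on each array, as log2(signal + 16) minus the mean over 6 arrays. Transgenic replicate 2 is low for Myh7 and the slow companions together, while the fast companions are lower on every transgenic array than on any wild type array.

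The cardiac chain Myh6 was near the filter on one probe set and under it on the other. Probe set 1448826_at gave 25.7, 30.2 and 35.2 in wild type and 27.7, 35.0 and 23.7 in transgenic muscle, with overlapping groups, a log2 difference of -0.05 and a 95% interval of -0.57 to 0.46. Probe set 1417729_at gave 6.02, 16.3 and 0.298 in wild type and 5.13, 0.962 and 8.24 in transgenic muscle, values without order at this brightness. Of the 7 cardiomyocyte markers none lay above the filter. Their summed signal was 142 to 152 in wild type and 70.5 to 107 in transgenic muscle, a sum of dim values from which no difference is read. Nkx2-5 alone ranged from 7.58 to 57.1 in wild type and from 3.44 to 43.9 in transgenic muscle. Myl7, the atrial light chain, and Tnni3, the cardiac troponin I, averaged 21.5 and 17.8 in wild type. By contrast the skeletal muscle markers were bright, 7 of 7 above the filter, with Acta1, the skeletal actin, at 21684 and Ckm, the muscle creatine kinase, at 21662 in wild type. Of these markers 6 had negative and 1 a positive log2 difference, with a median of -0.11 and none passing. Their summed signal was 97137 to 99464 in wild type and 89160 to 92384 in transgenic muscle, without overlap. Taken singly, 2 of the 7 had groups without overlap, beside 13.4% of all probe sets.

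The remaining thick filament genes were not called either. Of 19 listed genes for thick filament proteins and myosin assembly, 16 were tested, 0 passed, 5 had positive and 11 negative differences, and the median was -0.09. Mylk4, a kinase of the myosin light chain kinase family, had the largest positive difference of the list, with signals of 2947, 2101 and 2085 in wild type and 3488, 3333 and 2672 in transgenic muscle. Its groups overlapped, since wild type replicate 1 stood above transgenic replicate 3, and its log2 difference was 0.42 with an adjusted p of 0.418 in limma. Mybpc2, the fast myosin binding protein C, and Myom2, an M-band protein, had differences of -0.15 and -0.13 without overlap, both at mean signals over 10000. With Myom3, at -0.13, they made 3 of the 16 without overlap, beside 13.4% of all probe sets. Unc45b, the myosin chaperone of striated muscle, was at -0.03, and Smyd1, a methyltransferase of sarcomere assembly, at -0.07.

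Heavy chains outside the named set and regulators of fibre type gave no call. Of 7 other myosin heavy chain genes listed, 5 were tested and 0 passed. Myh9 and Myh10, non-muscle chains, had log2 differences of 0.04 and -0.16, Myh14 -0.31, the smooth muscle chain Myh11 0.03 and Myh7b, a sarcomeric relative of Myh7, -0.07. Of 23 regulators of fibre type 20 were tested, 0 passed, 7 had positive and 13 negative differences, and the median was -0.07. The lowest p among them belonged to Rcan1, a calcineurin inhibitor and target of that pathway, at -0.22, to Mef2a at -0.17 and to Hdac4, a repressor of MEF2, at -0.33, with adjusted p of 0.578, 0.593 and 0.605 in limma. The groups did not overlap for 4 of the 20, these 3 and Esrrg at -0.10, beside 13.4% of all probe sets. Sox6, a repressor of slow genes, was at -0.06, and Six4, an activator of fast genes, at 0.02.

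Some transcripts followed a heavy chain closely over the 6 arrays, as a description of these arrays in which the genotypes and the scaling are shared. Over log2(signal + 16), Myh8 was most like Ift172 (Pearson r = 0.996), Ppp1r12b (0.995), Ppfia4 (0.986) and Rcsd1 (0.985). Myh4 1427026_at was most like Ndufa10 (0.996), Snrpb2 (0.992), Zmym3 (0.990) and Cped1 (0.989). Myh7 was most like Ube2f (0.995), Cmc1 (0.993), Thbs2 (0.990) and Insig2 (0.990). These are the highest values found by gene among tested probe sets with a named gene, leaving out the sarcomeric myosin heavy chains. With 27022 probe sets tested, an r of 0.95 or more was reached by 48 with a named gene for Myh8, 83 for Myh4 and 46 for Myh7. The like count for other probe sets was not computed. These counts are therefore not read as more than unrelated transcripts would give.

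**Figure D5:**
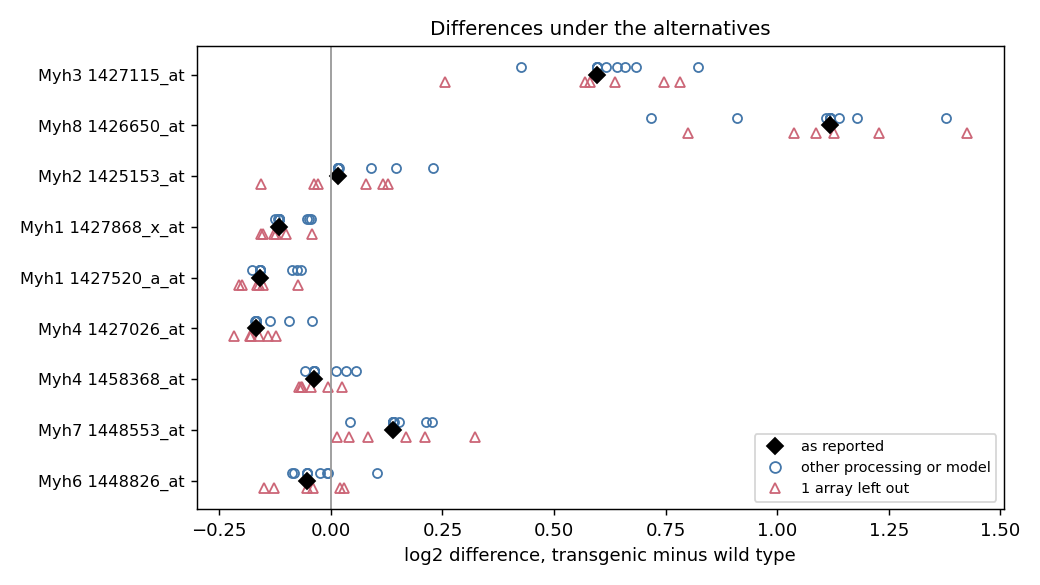
Log2 difference between genotypes (horizontal axis) of each tested probe set as reported (diamonds), under other processing or models (circles) and with 1 array left out (triangles). Myh8 stays between 0.72 and 1.43, Myh3 reaches down to 0.26, and Myh2, Myh4 1458368_at and Myh6 lie on both sides of 0.

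As a check of the labels, Itga7 itself gave 254, 308 and 313 in wild type and 2498, 2144 and 2072 in transgenic muscle, at an adjusted p of 1.67e-07 in limma. Array medians were 34.0 to 38.4, and the scaled mean was the same on all arrays. Precision was limited by the number of arrays, with a median half-width of the 95% interval of 0.37 on the log2 scale over all tested probe sets.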

How the data were processed

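RNA pools of calf muscle, 3 per genotype, were measured on Affymetrix Mouse430_2 arrays. The authors deposited a linear intensity per probe set. The submitters' processing notes name GCOS 1.1.1 and no algorithm or scaling target. On every array the mean of the deposited values was 150.0 after trimming 2% at each end. Scaling of this kind hides a shift shared by most transcripts, and signal near the top of the range can be compressed. Run information deposited by the authors, of other content than expression, gave array type, fluidics module and hybridisation time. The rounds were set here by grouping the arrays on those times.

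Of 45101 rows 64 control rows were left out. Genes were named from the platform annotation, updated through a RefSeq table of GRCm38.p6, for the 34945 probe sets with 1 symbol (34741 matched). Values were taken as log2(signal + 16). Probe sets whose mean lay above the 40th percentile entered a linear model in limma 3.58.1 (R 4.3.3) with an intensity trend, no covariates, two-sided tests and Benjamini-Hochberg adjustment over all 27022. Each probe set was kept apart. The fit was tested on simulated data with independent noise. The simulation held no module, round or shift of bright probe sets, so it does not bear on those. Pools are separate animals per the labels, so p-values measure the spread between pools.

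All probe sets of the 7 genes are described. In the other lists the brightest tested probe set of each gene was used, up to 3 genes with the smallest p were named, and others were named for their known role after their values were seen. The members and lists were chosen with earlier results of these data known. Likeness used the brightest tested probe set of Myh4, Myh7 and Myh8 and the 4 genes with the highest Pearson r. Figures were drawn with matplotlib 3.10.9.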

Additional observations from a re-analysis of the deposited data

How the results depend on the processing

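The number of myosin heavy chain probe sets passing was 0 under every alternative of offset, scaling, filter, variance model, replicate or round block and left-out array, so that the range over left-out arrays was 0 to 0. It was 1, that of Myh8, when the fluidics module was a random block, an alternative chosen after seeing the data. That fit rests on a negative within-module correlation, at -0.44. Over the whole array 33 probe sets passed, against 51 with equal array medians, 17 with no filter, 1 without the intensity trend, 297 with the module block and 18 to 39 with 1 array left out (lowest without wild type replicate 2, 19 without replicate 1 of wild type); the causes were not tested. Signs held for Myh8, Myh3, Myh7, the brighter Myh4 and both bright Myh1 probe sets. With 1 array left out, the sign turned in some fits for Myh2 (-0.16 to 0.13, negative without wild type replicate 1, transgenic replicate 1 or transgenic replicate 2), for Myh6 (-0.15 to 0.030, positive without wild type replicate 3 or transgenic replicate 3) and for the dimmer Myh4 probe set (-0.072 to 0.025, positive without transgenic replicate 3). In round 1 alone, a restriction chosen after seeing the data, Myh6 turned to 0.10 and this Myh4 probe set to 0.057. The log2 difference of this Myh4 probe set turned to 0.012 with quantile normalization and 0.034 with equal array medians. The offset sets the size of dim differences, since Myh8 was 1.38 with an offset of 1 and 0.72 with 64. With the replicate number as a block 36 probe sets passed, and Myh8 had an adjusted p of 0.0913. Deviations of same-numbered pools correlated at 0.003, 0.060 and 0.049. Wild type replicates 2 and 3 correlated best with their own number, and wild type replicate 1 with transgenic replicate 2, at 0.018. All these values were low, and the numbers were not taken to pair the pools.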
